A study of Mus musculus with 116 samples.

Results

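Cutting of the mouse immunoglobulin kappa locus by the RAG recombinase was followed in G1-arrested pro-B cells that lacked DNA ligase IV (Lig4), with or without Ku70. The comparison took 12 of the 116 samples of the series, which are 12 of its 42 lists of RAG junctions, chosen by sample title: 3 Lig4-/- libraries of clone A1 (titled Lig4_A1_b) against 3 Lig4-/-Ku70-/- libraries of clone A1_1, and 3 Lig4-/- libraries of clone C against 3 Lig4-/-Ku70-/- libraries of clone C1. Another set of 3 Lig4-/- A1 libraries served as an alternative. Wild-type clone A and Ku70-/- clones A1 and B1 are given for reference. Wild-type Vk positions were taken from wild-type clones A and B together. A1 and A1_1 are called lineage A here, and C and C1 lineage C, after the clone names. The 12 lists held 27209 of the 1374899 junctions in the RAG lists. All were made from v-Abl pro-B cells, immature B-lineage cells transformed by the v-Abl oncogene, which carried an Emu-Bcl2 transgene (Bcl2, a survival factor, under the B-cell Emu enhancer) in every group. The cells were arrested with 3 µM STI-571, an inhibitor of the Abl kinase, for 96 h, which also switches on RAG in such lines.

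Each genotype within a lineage was a single clone, so genotype and clone cannot be told apart within a lineage, and the genotypes rest on the labels. Each junction was read by LAM-HTGTS, a linear-amplification assay that starts from a primer beside the Jk1 segment (Igkj1) and sequences through whatever the Jk1 coding end has been joined to. The lists held only junctions in the Vk region of chromosome 6 (mm10). The labels say that libraries were normalized to 167151 raw reads in lineage A and 377068 in lineage C. Nothing in the labels says whether replicates came from separate cultures, so p-values measure only the spread between these libraries.

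RAG cuts beside a Vk and a Jk segment and leaves closed hairpin coding ends and blunt signal ends. The signal ends carry the recombination signal sequence (RSS), a heptamer and a nonamer held apart by a spacer. Classical end joining, in which the Ku70-Ku80 ring holds the ends and Lig4 with XRCC4 seals them, normally makes a coding joint from both coding ends and a signal joint from both signal ends; a coding end sealed to the signal end of the other segment is a hybrid joint. When that pathway is lost, rarer alternative end joining can use short stretches of sequence shared by both ends (microhomology).

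The germline ends are shown first. Jk1 losses below are counted from the first Igkj1 base. Vk losses are counted from the commonest wild-type junction position, unless counted from the heptamer. That position lies inside the coding end in both Vk segments shown. The germline ends were read from the deposited reads, and are written 5′ to 3′ in the coding direction. The first line gives Igkj1 (chr6:70722562-70722599, plus strand, mm10) in capitals, followed by the intron bases into which many joins ran. The other lines give the ends of Igkv1-117 (chr6:68121794-68121863, plus strand) and Igkv6-32 (chr6:70073988-70074057, minus strand) with the RSS heptamer in capitals.

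Igkj1: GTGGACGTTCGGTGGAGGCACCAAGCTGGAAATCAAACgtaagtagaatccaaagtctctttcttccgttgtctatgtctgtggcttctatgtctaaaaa
Igkv1-117: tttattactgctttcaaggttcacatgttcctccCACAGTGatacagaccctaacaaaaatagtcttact
Igkv6-32: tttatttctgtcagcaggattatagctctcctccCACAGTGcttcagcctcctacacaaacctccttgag

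The joins below are the 3 with the highest mean share in each Lig4-/-Ku70-/- clone. They show the forms that recur in the 27030 double-null junctions: trimmed coding joins, joins that have lost most or all of Jk1, and joins that run into an RSS. Bases aligned to the Jk1 side are in capitals and bases of the Vk side alone in lower case.

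A1_1, Igkv4-80: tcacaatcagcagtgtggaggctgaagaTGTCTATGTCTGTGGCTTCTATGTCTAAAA
A1_1, Igkv4-68: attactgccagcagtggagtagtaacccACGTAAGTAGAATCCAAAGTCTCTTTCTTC
A1_1, Igkv9-123, opposite: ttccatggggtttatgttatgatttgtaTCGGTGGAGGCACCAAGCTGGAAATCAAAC
C1, Igkv1-117: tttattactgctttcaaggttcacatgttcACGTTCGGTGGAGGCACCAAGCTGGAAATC
C1, Igkv19-93: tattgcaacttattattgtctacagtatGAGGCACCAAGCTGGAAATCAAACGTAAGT
C1, Igkv6-32, opposite: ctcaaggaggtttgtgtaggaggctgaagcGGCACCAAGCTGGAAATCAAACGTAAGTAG

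The Igkv4-80 join lost 69 bp from the Jk1 coding end, so no base of Jk1 was left, and the Igkv4-68 join lost 36 bp. The Igkv9-123 join lost 8 bp of Jk1 and ran outward through the Vk RSS. These joins were read in 13, 12 and 11 rows, the first 2 in 1 library each and the third in 2 libraries. The Igkv1-117 join of clone C1 lost 4 bp of Jk1, had no overlap between its ends, and was read 13, 6 and 25 times in the 3 libraries. The Igkv6-32 join lost 16 bp of Jk1, lay 10 bp outward of the commonest wild-type Vk position, and was read 4, 23 and 9 times. Of the heptamer it kept only the base farthest from the Vk segment. No single join was common: the most frequent held a mean of 0.232% of junctions in A1_1 and 0.247% in C1. The Igkv19-93 join of clone C1 lost 14 bp of Jk1, had an overlap of 2 bp, and was read 0, 20 and 22 times. It was also read 9 times in A1_1 and 1 time in Lig4-/- clone C. In Ku70-/- clone A1 the Igkv1-117 join was read 9 times, the Igkv19-93 join 7 times and the Igkv6-32 join 11 times. The Igkv1-117 join was also read 18 times in wild-type clone B and 0 times in wild-type clone A.

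The most frequent joins of the Lig4-/- clones filled a far larger part of their short lists. In clone A1 an opposite-orientation Igkv3-4 join (Igkv3-4 lies near the Jk cluster) was read 3 and 5 times in libraries 1 and 2 and not in library 3. In clone C the join with the highest mean share was an Igkv12-41 join, which made up all 3 rows of library 2. The join with the most rows in clone C, named after the values were seen, was an Igkv2-112 join read 4 times in library 1 and 18 times in library 3, which came from different sequencing runs.

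Lig4-/- A1, Igkv3-4, opposite: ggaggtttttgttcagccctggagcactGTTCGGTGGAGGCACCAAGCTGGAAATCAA
Lig4-/- C, Igkv12-41: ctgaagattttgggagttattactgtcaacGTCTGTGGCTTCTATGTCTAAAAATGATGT
Lig4-/- C, Igkv2-112: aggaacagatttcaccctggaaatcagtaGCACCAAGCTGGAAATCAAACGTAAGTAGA

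A pair of Lig4-/- libraries stood apart from their groups. Library 2 of clone C held the single Igkv12-41 join, so each of its shares is 0 or 100%. In library 3 of clone A1, 23 of 65 rows had the same Vk position, orientation, Jk1 end and overlap as a row of the wild-type library of the same sequencing run, and 24 rows matched wild-type libraries of clone A from other runs; in libraries 1 and 2 no row matched either. In distinct joins the match to other runs was 16 of 37. Library 3 of clone C matched those wild-type libraries in 6 of 46 rows, which are 5 of its 12 distinct joins. Matches to any other RAG group of the same run were 6 of 17, 7 of 32 and 39 of 65 rows in libraries 1 to 3 of clone A1. Whether rows passed between libraries was not tested. Values without library 2 of clone C, library 3 of clone A1 or both are given wherever they change a call. In lineage A libraries with the same number shared a sequencing run across genotypes, and in lineage C libraries 2 and 3 of both genotypes shared 1 run.

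Junctions between Jk1 and the Vk region were rare without Lig4 and common once Ku70 was absent as well. The Lig4-/- lists held 17, 32 and 65 junctions in clone A1 and 16, 3 and 46 in clone C. The Lig4-/-Ku70-/- lists held 1867, 3419 and 4188 junctions in clone A1_1 and 4457, 5874 and 7225 in clone C1. Per 100000 raw reads this was 10.2, 19.1 and 38.9 against 1117, 2045.5 and 2505.5 in lineage A, and 4.24, 0.796 and 12.2 against 1182, 1557.8 and 1916.1 in lineage C. Every double-null library was far above every Lig4-/- library, with no overlap in either lineage.

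On the log2 scale, with 0.5 added to each count, abundance rose by 6.49 in lineage A and 8.69 in lineage C, which are 89.5-fold and 413-fold differences. Without the library of 3 junctions the lineage C difference was 207-fold. The lineage-stratified mean was 7.59 (two-sided exact permutation p = 0.005, the smallest that 400 relabellings can give; adjusted p = 0.02 over 8 tests), and 6 of 6 same-numbered pairs were higher. Within the 3 runs of lineage A the log2 difference was 6.0 to 6.74, and within the shared run of lineage C it was 9.0. The abundance did not reach wild-type: the same-run libraries of clone A with intact repair genes held 28196.1 to 31752.1 junctions per 100000 raw reads, and those of Ku70-/- clone A1 held 1839.7 to 3818.7. On the log2 scale the double-null clone A1_1 lay 4.08 below wild-type (exact permutation p = 0.1, the smallest that 3 against 3 allows; n = 3), and 0.69 below Ku70-/- A1, with overlapping libraries (exact permutation p = 0.3; n = 3).

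**Figure D1:**
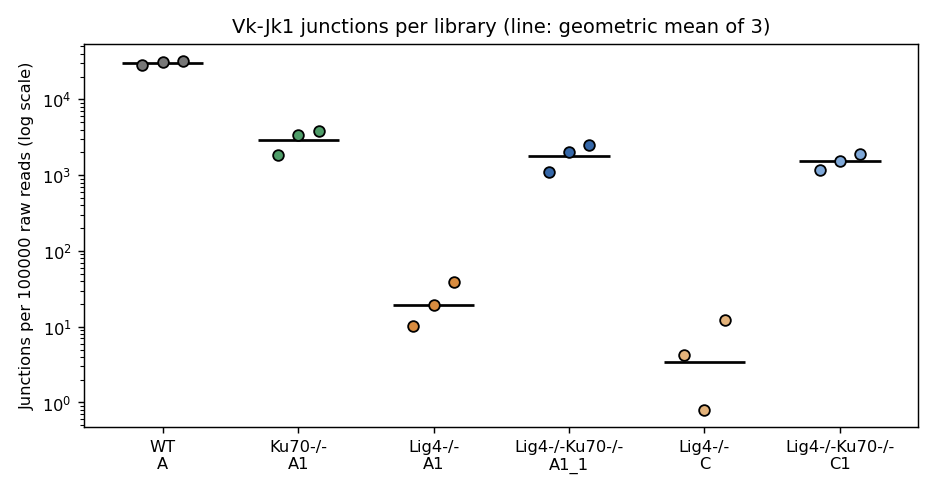
Junctions between Jk1 and the Vk region per 100000 raw reads (log axis) in each library of 6 clones; dots are libraries and lines geometric means of 3. The 6 Lig4-/- libraries lie at 38.9 or below and the 6 Lig4-/-Ku70-/- libraries at 1117 or above.

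Most joins of the double-null cells were seen in 1 library. Counting each combination of Vk position, orientation, Jk1 end and overlap once, the Lig4-/-Ku70-/- lists held 842, 1615 and 2585 distinct joins in A1_1 and 1851, 1163 and 2390 in C1. The Lig4-/- lists held 8, 14 and 37 distinct joins in A1 and 12, 1 and 12 in C. Of the 4835 distinct joins of A1_1, 4643 occurred in 1 library and 15 in all 3, and of the 5040 of C1, 4727 occurred in 1 library and 51 in all 3. The rows per join differed between libraries: distinct joins were 61.7% of the rows in library 3 of A1_1 but 19.8% in library 2 of C1.

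Loss from the Jk1 end was extensive in the double-null libraries and nearly the same in every one of them. The median loss was 19, 19 and 18 bp in A1_1 and 17, 16 and 16 bp in C1, against 0 bp in wild-type clone A. A Jk1 end kept whole was found in 1.98%, 1.17% and 2.08% of junctions in A1_1 and 2.13%, 1.82% and 1.34% in C1, against 52.3% ± 0.97 (SD, n = 3) in wild-type. The whole 38 bp segment was gone, with the join lying in the intron behind it, in 34.3%, 33.3% and 33.1% of A1_1 junctions and 29.4%, 27.4% and 25.5% of C1 junctions. In wild-type that share was 0.026% ± 0.022 (SD, n = 3). The longest loss in these lists was 107 bp, where the read still had to hold enough sequence beside the primer.

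The losses gathered at the same Jk1 bases in both double-null clones. The most used end in both began with ggcaccaagctg, after a loss of 16 bp, in 6.82% ± 0.10 of A1_1 junctions and 7.36% ± 0.64 of C1 junctions (SD, n = 3 each). Ends after losses of 4 bp (acgttcggtgga) and 5 bp (cgttcggtggag) came next, in 5.11% ± 0.41 and 5.14% ± 0.39 in A1_1 and 6.46% ± 1.28 and 5.67% ± 0.57 in C1. Inside the intron, single ends at losses of 42 bp and 56 bp held 2.60% ± 0.16 and 3.14% ± 1.18 in A1_1 and 2.25% ± 0.49 and 2.12% ± 0.16 in C1. In Ku70-/- clone A1 the end at 16 bp was also the most used, with 8.98% ± 1.0.

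The Lig4-/- junctions were too few and too uneven for a shared difference in Jk1 loss. Their medians were 13, 14 and 9 bp in clone A1, all below the A1_1 libraries, and 17, 76 and 17 bp in clone C, at or above the C1 libraries. The stratified difference was -6.83 bp (exact permutation p = 0.965; adjusted p = 0.965), made of 6.67 bp in lineage A, where within-run differences were 5 to 9 bp, and -20.3 bp in lineage C, where the within-run value was -30.5 bp. Without library 2 of clone C the stratified difference was 3 bp (exact permutation p = 0.095).

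Loss of the whole Jk1 segment was found in 5.88%, 15.6% and 6.15% of the Lig4-/- A1 junctions and in 12.5%, 100% and 0% in clone C. In library 3 of clone C, 0 of 46 junctions allows a share of up to 6.52%. This share lies outside the 8 tests and was chosen after values were seen. Over all libraries the stratified difference was 7.14 percentage points (exact permutation p = 0.82), and without library 2 of clone C it was 22.8 points (exact permutation p = 0.005).

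**Figure D2:**
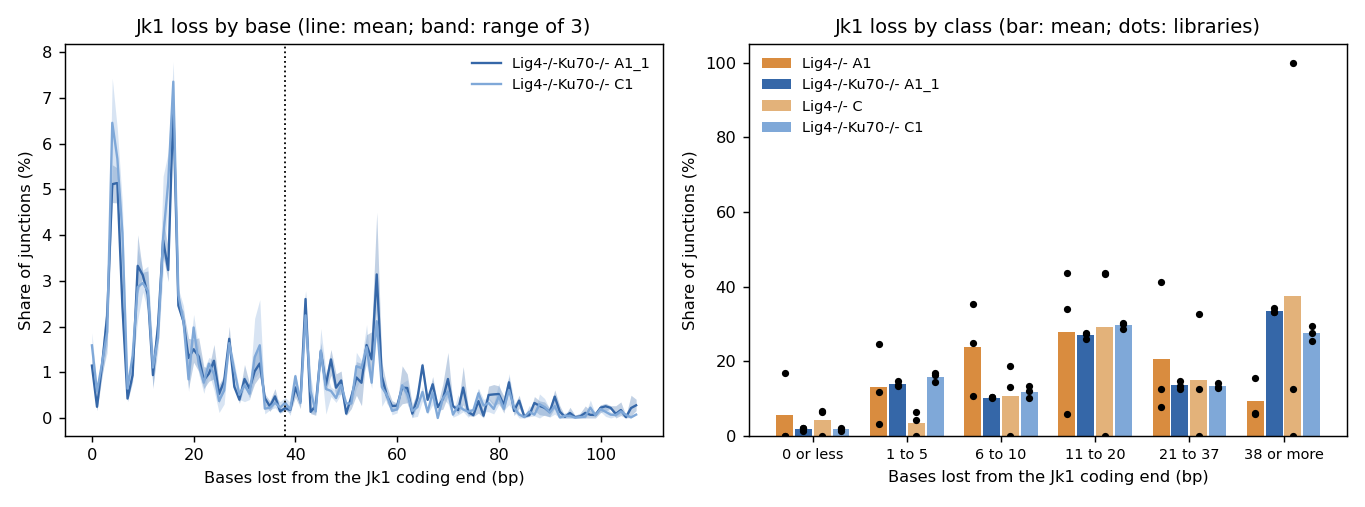
Left, share of junctions (%) by bases lost from the Jk1 coding end in the Lig4-/-Ku70-/- clones, with lines for means and bands for the range of 3 libraries; the dotted line at 38 bp marks the end of Jk1. Right, shares by loss class in the 4 clones, with bars for means and dots for libraries. Both double-null clones peak at losses of 4, 5 and 16 bp, and the dot at 100% is the library of 3 junctions.

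Vk loss was counted from the position that wild-type junctions use most in each of 118 Vk segments. A wild-type loss of 0 bp therefore marks this position and not an untrimmed end. In joins of the wild-type orientation, which keep the Vk coding end, the median loss was 10, 10 and 11 bp in A1_1 and 8, 8 and 7 bp in C1, against 0 bp in wild-type clone A. The share of these joins with over 20 bp lost fell into 26.7% ± 2.32 at 21 to 50 bp and 7.83% ± 0.23 beyond that in A1_1, and 21.1% ± 0.48 and 2.92% ± 0.29 in C1 (SD, n = 3 each). The Vk end was thus trimmed in both clones, and the losses were longer in A1_1 than in C1 in every library.

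The heptamer gives an absolute zero for the same quantity. It was found next to the wild-type position, as the letters CACAGTG on the coding strand, in 92 of the 118 segments. Counted from the last base before it, 2.12%, 2.58% and 2.46% of wild-type-orientation joins in A1_1 and 2.78%, 4.65% and 3.17% in C1 had lost no Vk base. In wild-type clone A that share was 15.8% ± 0.23 (SD, n = 3) and in Ku70-/- clone A1 it was 0.565% ± 0.098 (SD, n = 3). The A1_1 share lay above that of Ku70-/- A1 in all 3 libraries. Counted from the last base before the heptamer, the median Vk loss was 14, 14 and 13 bp in A1_1. It was 11 bp in each C1 library and 3 bp in each library of wild-type clone A.

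Over both orientations the Vk end loss was 15, 14 and 15 bp in A1_1 and 11, 11 and 10 bp in C1, against 14, 12 and 5 bp in Lig4-/- A1 and 21.5, 16 and 18 bp in Lig4-/- C. The groups overlapped in lineage A, and every C1 library was below every clone C library. The stratified difference was -1.75 bp (exact permutation p = 0.51; adjusted p = 0.583), with 4.33 bp in lineage A and -7.83 bp in lineage C. Within runs it was 1 to 10 bp in lineage A and -6.5 bp in lineage C. Coding-side Vk loss alone lay outside the 8 tests. Its stratified difference was -2.83 bp over all libraries (exact permutation p = 0.265). Without library 3 of Lig4-/- A1 it was -4.25 bp (exact permutation p = 0.04).

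Direct joins, with neither shared nor inserted bases, were the commonest form in the double-null cells. They made up 48.3%, 52.1% and 48.5% of A1_1 junctions and 53.0%, 50.5% and 51.8% of C1 junctions. Overlaps of 1 bp made up 26.99% ± 1.01 and 25.98% ± 0.59 (SD, n = 3 each). Overlaps of 2 bp made up 11.5% ± 1.74 and 10.9% ± 0.37, of 3 bp 4.63% ± 0.46 and 3.9% ± 0.64, and of 4 to 6 bp 3.74% ± 0.66 and 2.92% ± 0.33. Overlapping bases were counted as kept on both sides, so losses at such joins are lower bounds on what was removed from one of the ends.

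Microhomology of at least 2 bp was found in 88.2%, 53.1% and 53.8% of Lig4-/- A1 junctions and in 21.3%, 19.4% and 21.5% of A1_1 junctions. All 3 A1 libraries were above all A1_1 libraries, although 15 of 17, 17 of 32 and 35 of 65 rows leave wide Wilson 95% intervals of 65.7 to 96.7%, 36.4 to 69.1% and 41.8 to 65.4%. In lineage C the shares were 43.8%, 0% and 17.4% against 17.5%, 19.2% and 18.1%, and overlapped. For the double-null libraries half-widths of the interval were 0.888 to 1.85 points.

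The stratified difference in microhomology was -23.2 percentage points (exact permutation p = 0.05; adjusted p = 0.133), with -44.4 points in lineage A and -2.10 in lineage C, so it did not pass the test. Within runs it was -67.0 to -32.4 points in lineage A and 9.98 points in lineage C. Without the library of 3 junctions it was -28.3 points (exact permutation p = 0.02), and without that library and library 3 of clone A1 together it was -31.1 points (exact permutation p = 0.04). Counting distinct joins once it was -26.3 points, and without library 3 of Lig4-/- C -24.0 points (exact permutation p = 0.035 each).

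The share of direct joins was 0%, 0% and 38.5% in Lig4-/- A1 and 0%, 100% and 8.70% in Lig4-/- C. In all, 25 of the 65 rows of library 3 in clone A1 were direct, and 0 of 17 and 0 of 32 in libraries 1 and 2 allow up to 17.6% and 9.38%. This share lies outside the 8 tests and was chosen after values were seen: the stratified difference was 26.2 points and did not pass (exact permutation p = 0.1). It was 36.8 points in lineage A, where the groups did not overlap, and 15.5 points in lineage C, where they did; within runs it was 10.1 to 52.1 points in lineage A and -3.18 points in lineage C. It was 42.1 points without the library of 3 junctions (exact permutation p = 0.005).

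The overlaps at double-null joins were short and varied. The share that unrelated ends would show by matching bases is not given here, so use of microhomology was not tested. Among joins with at least 2 shared bases the commonest shared sequence was AC, in 7.76% ± 3.32 of them in A1_1 and 9.65% ± 0.81 in C1 (SD, n = 3 each), followed over both clones by TC, GT and GG. The 6-base sequence GTGGAG, which lies inside Jk1, held 1.42% ± 0.60 and 1.29% ± 0.13. GT was the commonest in Lig4-/- A1, with 15 rows, of which 8 were the single Igkv3-4 join shown above. A 7-base overlap CACTGTG, which is the heptamer read outward, was present in 32 A1_1 rows and 2 C1 rows, all joins of an unbroken Vk RSS to an untrimmed Jk1 coding end, where both alignments run through the same letters. No such join was found in the 179 Lig4-/- rows, and 24 were found in wild-type clone A.

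Insertions were uncommon in double-null cells: 2.63%, 2.63% and 2.72% in A1_1 and 3.37%, 4.94% and 3.57% in C1. Their median length was 4, 3 and 4 bp in A1_1 and 4, 4 and 5 bp in C1. Lig4-/- libraries held insertions in 0%, 21.9% and 7.69% in clone A1 and 12.5%, 0% and 4.35% in clone C, which are 7 rows at most. The stratified difference was -4.43 points (exact permutation p = 0.28; adjusted p = 0.448), -7.20 in lineage A and -1.66 in lineage C, and -19.2 to 2.62 points within the runs of lineage A and 2.08 within the run of lineage C. Without library 1 of Lig4-/- A1 it was -6.89 points (exact permutation p = 0.04). Wild-type clone A, by contrast, had insertions in 61.9% ± 0.44 of junctions (SD, n = 3).

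**Figure D3:**
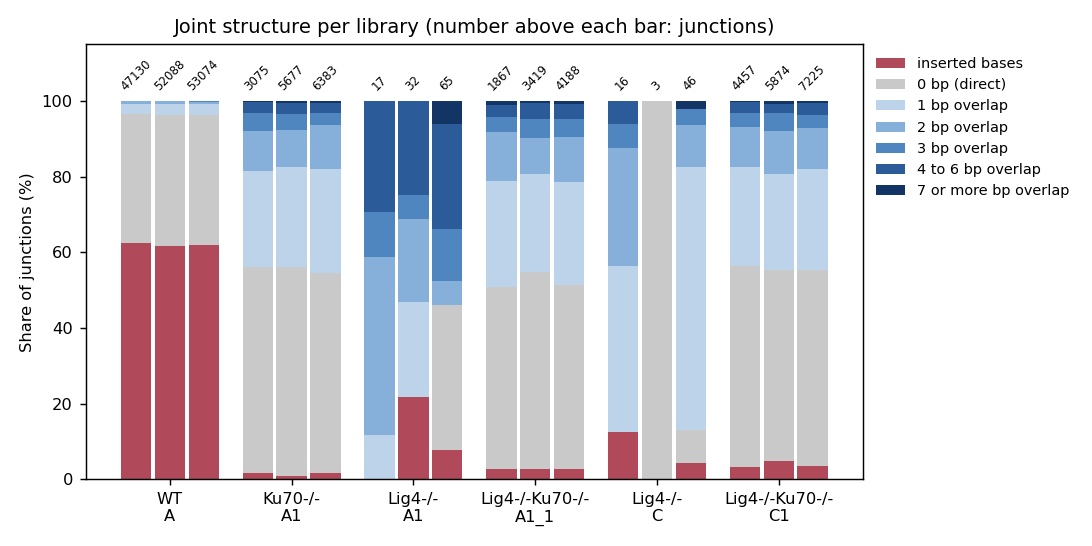
Shares of junctions (%) with inserted bases, with none (direct) and with overlaps of 1 to 7 or more bp in each library of 6 clones; the number above each bar is the junctions it holds. The 6 Lig4-/-Ku70-/- bars look alike, with 48.3 to 53.0% direct joins, while the Lig4-/- bars rest on 3 to 65 junctions.

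A large part of the double-null joins linked the Jk1 coding end to the signal side of a Vk cut. Such joins, read in the orientation opposite to a wild-type coding joint and called opposite below, were 41.1%, 33.0% and 36.7% of assigned junctions in A1_1 and 31.7%, 33.6% and 28.4% in C1. In wild-type clone A 99.7% ± 0.078 of junctions (SD, n = 3) had the coding orientation. The median Jk1 loss of opposite joins was 19.0 ± 2.0 bp in A1_1 and 16.7 ± 1.15 bp in C1 (SD, n = 3), against 18.3 ± 0.58 and 16 ± 0 bp in the coding orientation. Insertions were less frequent in opposite joins, at 1.43%, 1.33% and 1.82% against 3.46%, 3.28% and 3.25% in A1_1 and 3.05%, 2.84% and 2.29% against 3.52%, 5.997% and 4.08% in C1. They were lower in 6 of 6 libraries, and the difference was not tested.

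Opposite joins were also trimmed on the RSS side. The median distance beyond the wild-type Vk position was 21, 21 and 20 bp in A1_1 and 16, 15 and 16 bp in C1. Counted from the first heptamer base, the median loss was 17, 16 and 16 bp in A1_1 and 11 bp in each C1 library. Of opposite joins in segments with a located heptamer, 79.5%, 78.8% and 75.7% in A1_1 and 70.6%, 66.9% and 68.5% in C1 had lost all 7 heptamer bases. The join lay exactly at the first heptamer base in 3.03%, 2.38% and 4.51% and in 1.76%, 2.29% and 3.15%. In wild-type clone A, whose opposite joins were 96, 156 and 174 rows, the join lay at that base in 40.6%, 25.6% and 32.2%. In the Lig4-/- libraries none of 11, 19, 11 and 4 opposite joins lay at that base. All heptamer bases were lost in 45.5%, 68.4% and 54.5% of them in A1 and in 100% in library 1 of clone C.

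The difference in orientation share between genotypes did not pass the test. Opposite joins were 64.7%, 59.4% and 16.9% in Lig4-/- A1 and 25%, 0% and 0% in Lig4-/- C, where 0 of 46 junctions allows up to 6.52%. In lineage A the wild-type orientation was 10.1 points more frequent in A1_1 and the groups overlapped, and in lineage C it was 22.9 points less frequent in C1, with no overlap. The stratified difference was -6.42 points (exact permutation p = 0.475; adjusted p = 0.583). Within runs it was -19.8 to 26.4 points in lineage A and -31.0 points in lineage C.

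In double-null cells the opposite share differed with the direction in which the Vk segment lies. Of the 118 segments, 47 are read in the same direction as Jk1, so that a coding joint deletes the DNA between them and an opposite join inverts it; 71 are read the other way, so that a coding joint inverts and an opposite join deletes. Opposite joins were 18.6%, 16.3% and 17.8% of the joins to same-direction segments in A1_1 and 51.6%, 43.4% and 46.5% of those to other-direction segments. In C1 they were 15.5%, 17.2% and 16.4% against 39.1%, 42.0% and 33.6%. The difference was 25.7 points, between 17.2 and 33.0 in single libraries and in the same direction in 6 of 6 (exact sign-flip p = 0.0312, the smallest that 64 flips allow). It was computed after the values were seen, and was 27.1 points with distinct joins counted once. In Lig4-/- A1 the shares were 37.5% against 88.9%, 58.8% against 60%, and 5.26% against 21.7%, on 8 to 46 joins each. In library 1 of Lig4-/- C they were 30% against 16.7%, on 10 and 6 joins, and libraries 2 and 3 held no opposite join.

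The same pattern was seen in Ku70-/- clone A1, at 13.9% ± 5.93 and 38.7% ± 4.50 (SD, n = 3). Joins that delete the DNA between the ends, of either orientation, thus made up 61.1%, 58.9% and 58.7% of A1_1 junctions and 53.3%, 55.9% and 48.6% of C1 junctions, against 35.8% ± 5.50 in wild-type clone A and 53.9% ± 0.51 in Ku70-/- A1 (SD, n = 3). A1_1 exceeded wild-type in all 3 libraries by 23.8 points (exact permutation p = 0.1, the smallest for 3 against 3; n = 3). In the Lig4-/- libraries the share was 76.5%, 50% and 43.1% in A1 and 50%, 0% and 58.7% in C. It lay outside the 8 tests, and its stratified difference was 9.71 points (exact permutation p = 0.45).

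**Figure D4:**
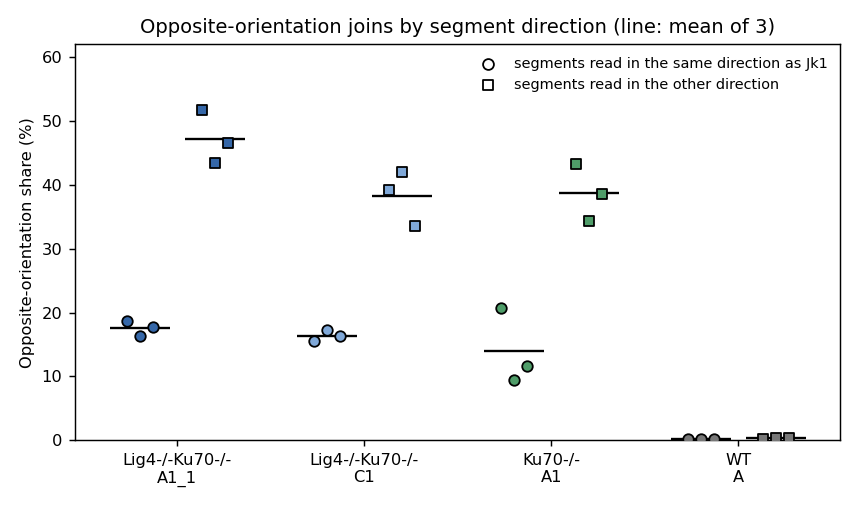
Share of opposite-orientation joins (%) among joins to Vk segments read in the same direction as Jk1 (circles) and in the other direction (squares); each point is a library and lines are means of 3. In the Lig4-/-Ku70-/- libraries all circles lie at 18.6% or below and all squares at 33.6% or above.

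Joins of the double-null cells were spread over most of the kappa locus. They used 93, 97 and 105 segments of 118 in A1_1 and 101, 95 and 101 in C1, against 7, 10 and 27 in Lig4-/- A1 and 11, 1 and 12 in Lig4-/- C, where few junctions were read. The chance that a pair of junctions fell in different segments, which corrects for the number read, was 97.6%, 97.7% and 97.8% in A1_1 and 96.6%, 95.9% and 96.6% in C1. It was 86.8%, 88.5% and 94.8% in Lig4-/- A1 and 93.3%, 0% and 75.8% in Lig4-/- C, all below the double-null libraries.

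This spread rose by 23.8 points (exact permutation p = 0.005, adjusted p = 0.02; higher in 6 of 6 pairs), by 7.68 in lineage A and 39.98 in lineage C. Within runs it was 3.04 to 10.8 points in lineage A and 58.3 points in lineage C. It was 9.74 points without library 2 of clone C (exact permutation p = 0.005) and 10.9 points without that library and library 3 of clone A1 together (exact permutation p = 0.01). Counting each distinct join once, which leaves out library 2 of clone C because it holds 1 join, it came to -0.058 points (exact permutation p = 0.96), so the rise was not seen among distinct joins. With distinct fragments, which also differ at the far end, it was 5.94 points (exact permutation p = 0.005). Leaving out any 1 of the C1 libraries gave an exact permutation p of 0.135, with differences of 23.8 to 24.0 points.

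The most used segment over the 6 double-null libraries was Igkv6-32 (chr6:70074024-70074584, 648.5 kb from Jk1), with 6.2%, 3.7% and 4.5% of junctions in A1_1 and 9.7%, 12.5% and 9.7% in C1. It led in all 3 C1 libraries, but in A1_1 its mean of 4.79% ± 1.25 was below the 4.93% ± 0.58 of Igkv11-125 (SD, n = 3 each), and the libraries of these segments overlapped. Every double-null library was above the wild-type mean of 3.35% ± 0.62 (SD, n = 3). It was also the segment with the highest opposite share of the 10 most used, 66.9% on average and 45.7 to 81.9% in single libraries. In Lig4-/- A1 it held 1, 6 and 11 rows, and none in Lig4-/- C.

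Igkv1-135, second by the mean over the 6 libraries and among the farthest from Jk1 at 3112.1 kb, held 3.3%, 4.9% and 3.7% in A1_1 and 7.7%, 8.2% and 6.8% in C1, with a mean opposite share of 13.4%. Igkv19-93 held 3.6%, 4.9% and 3.4% in A1_1 and 7.5%, 6.0% and 6.3% in C1, above the wild-type mean of 2.26% ± 0.37 in all 6 libraries. Igkv1-117 held 2.6%, 2.9% and 2.7% in A1_1 and 5.8%, 6.7% and 6.0% in C1. These segments were used more in C1 than in A1_1, with no overlap.

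Igkv11-125 was used the other way round, at 4.3%, 4.9% and 5.5% in A1_1 and 0.9%, 1.1% and 0.7% in C1. Igkv8-30 also stood higher in A1_1, at 4.9%, 4.2% and 4.3% against 2.4%, 2.6% and 2.4%. The remaining members of the 10 most used were Igkv12-44, Igkv4-50, Igkv4-51 and Igkv12-46, with means over the 6 libraries of 3.98%, 3.22%, 3.16% and 2.69%. Together the 10 held 42.65% of double-null junctions and 26.7% of wild-type clone A junctions; the set was chosen for its use in double-null cells, so the first of these shares is a description only.

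Igkv6-32 led library 3 of Lig4-/- A1 with 11 rows. The other segments that led a Lig4-/- library were minor in the double-null cells. Igkv3-10, tied with Igkv8-21 (a double-null mean of 2.04%) at 4 of 17 rows in library 1 of clone A1, held 0.8%, 1.4% and 1.5% in A1_1 and 0.9%, 0.7% and 1.0% in C1. It was the most used segment of wild-type clone A, at 5.44% ± 1.82 (SD, n = 3). Igkv2-112, which led libraries 1 and 3 of clone C with 4 and 18 rows, held a mean of 0.53% over the 6 double-null libraries, and Igkv12-41, alone in library 2, held 1.62%. Igkv10-95, which tied with Igkv6-32 at 6 rows in library 2 of clone A1, held 1.44%.

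By family, Igkv4, with 32 of the 118 segments, was the most used in both double-null clones, at 27.8% ± 1.13 in A1_1 and 24.1% ± 3.10 in C1 (SD, n = 3 each), against means of 35.8% in wild-type clone A and 35.5% in Ku70-/- A1. Igkv8 followed in A1_1 with 15.0% ± 1.89, and Igkv1 in C1 with 16.7% ± 1.14. The family values after these are means of 3 libraries. Igkv3 held 4.3% and 3.9% against 12.3% in wild-type. The families Igkv12, Igkv6 and Igkv11 held 8.4%, 6.4% and 7.8% in A1_1 and 10.4%, 12% and 2.5% in C1, and Igkv19 held 4.0% and 6.6%. Igkv2, Igkv5, Igkv9, Igkv10 and Igkv14 each held 1.0 to 3.3% in both clones, and Igkv7, Igkv13, Igkv15, Igkv16, Igkv17, Igkv18 and Igkv20 each held 1.3% or less. As a description across the 118 segments, which share libraries and amplification, the mean use in A1_1 and in C1 had a Spearman correlation of 0.81 and 0.79 with wild-type clone A, and of 0.83 with each other.

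The difference in the share near Jk1 did not pass the test. Junctions within 1 Mb of Jk1 were 38.6%, 34.9% and 36.7% in A1_1 and 37.5%, 40.8% and 38.1% in C1, close together in all 6 libraries. They were 70.6%, 40.6% and 36.9% in Lig4-/- A1 and 25%, 100% and 52.2% in Lig4-/- C. The stratified difference was -16.4 points (exact permutation p = 0.195; adjusted p = 0.39), with -31.97 to -0.20 points within the runs of lineage A and -36.6 points within the run of lineage C. Without library 1 of Lig4-/- C it was -24.9 points (exact permutation p = 0.01). In wild-type clone A the share was 37.6% ± 1.72 (SD, n = 3), 0.89 points above A1_1 (exact permutation p = 0.6; n = 3). With distinct joins counted once the direction turned: A1_1 stood 3.46 points above wild-type, at 36.2% ± 1.96 against 32.8% ± 0.35, with no overlap (exact permutation p = 0.1, the smallest for 3 against 3; n = 3).

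**Figure D5:**
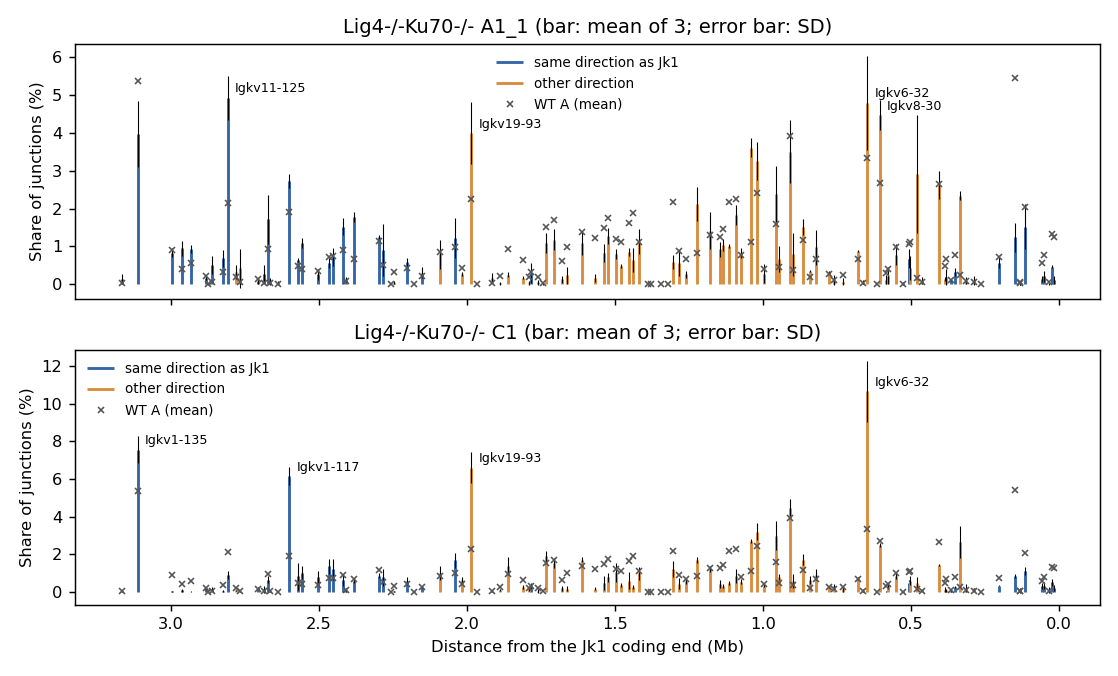
Share of junctions (%) in each of 118 Vk segments by distance from the Jk1 coding end (Mb) in the Lig4-/-Ku70-/- clones; bars are means of 3 libraries, error bars SDs, colours the direction of the segment and crosses the wild-type clone A mean. Use extends from the Jk side to beyond 3 Mb in both clones, with Igkv6-32 highest in C1.

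Ku70-/- clone A1 has Lig4 and shared the 3 sequencing runs. Against it, the double-null clone A1_1 had a longer median Jk1 loss and a shorter median Vk coding-end loss. The Jk1 medians were 18.7 ± 0.58 and 16.3 ± 0.58 bp (SD, n = 3 each). Jk1 ends kept whole were also more frequent in A1_1, at 1.74% ± 0.50 against 0.425% ± 0.094 (SD, n = 3 each). The whole Jk1 segment was gone in 33.6% ± 0.67 of A1_1 junctions and 26.7% ± 1.54 of Ku70-/- junctions (SD, n = 3), a difference of 6.89 points. The median coding-side Vk loss was 10.3 ± 0.58 bp against 13.7 ± 1.15 bp. Insertions were 2.66% ± 0.054 against 1.35% ± 0.42, and direct joins 49.6% ± 2.13 against 54.2% ± 1.14. None of these measures overlapped between the groups (exact permutation p = 0.1 each, the smallest that 3 against 3 allows, adjusted p = 0.156 over the 14 measures compared, n = 3). At the same p, Vk end loss over both orientations (14.7 against 16.7 bp) and microhomology (20.7% against 18.0%) did not overlap. Nor did the share of joins that delete (59.6% against 53.9%). Abundance, Vk spread, the Jk1-proximal share and RSS-side Vk loss overlapped. With distinct joins counted once insertions overlapped, at 3.11% ± 0.22 against 2.61% ± 0.62 (exact permutation p = 0.3, n = 3). The other measures that had not overlapped still did not. The opposite share overlapped, with the wild-type orientation at 63.1% ± 4.05 and 69.2% ± 5.56 (exact permutation p = 0.3; n = 3). Each side is a single clone, so genotype and clone cannot be told apart. In other lineages, the whole Jk1 segment was gone in 27.4% ± 1.97 of double-null C1 junctions and 11.5% ± 0.34 of Ku70-/- clone B1 junctions. Jk1 ends were kept whole in 1.77% ± 0.40 of C1 junctions and 0.906% ± 0.040 of B1 junctions. The median coding-side Vk losses of C1 and B1 were 7.67 ± 0.58 and 10.7 ± 0.58 bp (SD, n = 3 each).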

How the data were processed

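Junction lists of 12 LAM-HTGTS libraries were compared. The other RAG lists were also read, for reference values, Vk coding ends and shared joins. The authors deposited 1 row per junction, and its columns hold coordinates and read positions rather than a normalized measure. Alignment used Bowtie2 on mm10, per the submitters' processing notes (version and other steps not given in the sources used here). Of the lists, 90 of Cas9 or ZFN breaks were not used. Vk segments came from RefSeq GRCm38.p6: 118 of 162 had at least 50 wild-type rows within 100 bp of the annotated end, and the commonest wild-type position was taken as the coding end. These rows were pooled over wild-type clones A and B. Their libraries held means of 50764 and 296668 junctions, so clone B had more weight. Junctions within 200 bp were assigned. Overlap or insertion was the distance between the aligned parts of the read. Each library gave 1 value per measure, compared by two-sided exact permutation within lineages and adjusted by Benjamini-Hochberg over 8 tests. Scripts (Python 3.11, SciPy) were tested on simulated data. Segments were named as the 10 most used in Lig4-/-Ku70-/- libraries and those leading any Lig4-/- library. Binomial intervals are Wilson 95%; a count of 0 allows up to 3 counts. Both cover counting error only, since reads are not independent molecules. Libraries held 3 to 7225 junctions. Replicates shared no read names. Samples, measures and lists were chosen with earlier results of these data known. Alternatives counted distinct joins or fragments, left out libraries, and changed windows and thresholds.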

Additional observations from a re-analysis of the deposited data

Results flagged for a closer look

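For Jk1 end loss the double-null minus Lig4-/- differences of the 2 lineages lay 27 bp apart. The median was 6.67 bp longer in A1_1 than in Lig4-/- A1 and 20.3 bp shorter in C1 than in Lig4-/- C (lineage C difference of -20.3 bp). The difference between lineages had a two-sided exact permutation p of 0.015 and did not pass after adjustment (adjusted p = 0.06 over 8 measures). Each genotype is a single clone per lineage, so genotype and clone cannot be told apart. Library 2 of Lig4-/- C holds 3 junctions of 1 join, which lost 76 bp. Without it the lineage C difference was -0.667 bp and the lineages differed by 7.33 bp (exact permutation p = 0.02, adjusted p = 0.08).

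For Vk end loss the lineages differed by 12.2 bp, with 4.33 bp in lineage A and -7.83 bp in lineage C (exact permutation p = 0.01, adjusted p = 0.06). Without the same library the lineages differed by 13.4 bp, with -9.08 bp in lineage C (exact permutation p = 0.01, adjusted p = 0.08). In the 6 Lig4-/- libraries these medians rest on 3 to 65 junctions. No group had 4 or more libraries, so single libraries were not tested as outliers.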

How the results depend on the processing

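Of the results above, abundance kept its call in every alternative run, with log2 differences of 7.09 to 8.02 when 1 library was left out. Vk spread turned to -0.058 points with distinct joins counted once, and leaving out 1 library gave 9.74 to 33.1 points, with the call lost without any 1 of the C1 libraries. The microhomology share fell below the 0.05 threshold of the exact permutation test with distinct joins (-26.3 points), with distinct fragments (-24.7 points), in libraries of at least 10 junctions (-28.3 points) and without the 2 libraries that stand apart (-31.1 points); leaving out 1 library gave -28.3 to -17.4 points. The insertion share (-6.89 to -1.42 points) and the Jk1-proximal share (-24.9 to -6.20 points) each passed without 1 library of Lig4-/- (A1 library 1, p = 0.04, and C library 1, p = 0.01; exact permutation). The inversional-minus-deletional difference in opposite share ran from 24.9 to 26.9 points when 1 library was left out, each with an exact sign-flip p of 0.0625, the smallest that 32 flips allow.

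Apart from Vk spread, signs turned only in results that did not pass the test in either setting. Jk1 end loss went from -6.83 bp to 3 bp in libraries of at least 10 junctions, 1.46 bp with means for medians and 2.25 bp without both libraries that stand apart, and to between -11.8 and 3 bp with 1 library left out. The wild-type orientation share was 3.19 points without both libraries and -10.8 to 1.10 points with 1 left out; the deletion share was -2.71 points without both. With distinct joins Vk end loss was 1.92 bp, and coding-side Vk loss 2.58 bp against -2.83 bp. RSS-side Vk loss went from 3.42 bp to -2.42 bp without junctions shared with another group of the run. Loss of the whole Jk1 segment ran from -2.23 to 22.8 points with 1 library left out.

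With the replicate number as a block (exact sign-flips of 6 pairs), abundance and Vk spread kept p = 0.0312, the smallest 64 flips allow, and the microhomology share had p = 0.125. Same-numbered libraries shared a run in lineage A, but their deviations over Vk segments correlated at -0.18 to -0.0031 in both lineages, so the block was kept as an alternative. The heptamer zero point and the joint omission of libraries were chosen after seeing the data. Depth limits every Lig4-/- share, with half-widths of up to 28.1 points.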
